A study of Homo sapiens with 60 samples.

Results

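The genes described here are MYC and 35 genes of ribosome biogenesis and growth metabolism in HT29 cells exposed to herbal extracts. HT29 is a long-established cell line from a human adenocarcinoma of the colon, and its cells are epithelial. A member had to be on a written list of 36 symbols and to reach a mean of at least 1 CPM (counts per 1000000 counts of the library) in at least 1 group of libraries. All 36 of the 36 listed genes met this rule, out of 60675 gene identifiers in the deposited table. The tested groups were cells given the hot-water extract of Menthae Herba, Saposhnikoviae Radix, Saengmaek-san, Guibi-tang, Soyo-san or Okbyeongpung-san at 20 µg/mL (low), 100 µg/mL (medium) or 500 µg/mL (high). Their common reference was cells given DMSO, and every group was sampled at 24 h. The sample labels give no DMSO content for cells with an extract, so the part of DMSO in the comparisons with vehicle was not tested. Each group had 3 libraries, so that 18 extract groups and 1 vehicle group made 57 libraries. A further formula, Soshiho-tang, had 1 library at each dose. The sample characteristics put the vehicle at 0.1% DMSO and the series' design text at 2%, a difference that could not be settled. The labels do not say whether the 3 libraries of a group came from separate cultures, so p-values measure the spread between libraries, which may be technical.

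Ribosomes are built in the nucleolus. RNA polymerase I copies the ribosomal DNA into a long precursor, small nucleolar ribonucleoprotein particles (snoRNPs) modify that precursor, and many assembly factors cut and fold it into the small and the large subunit. MYC is a transcription factor that pairs with MAX, binds the E-box sequence and is known to drive the genes of this pathway in proliferating cells. Colorectal cancer lines such as HT29 typically hold MYC high through WNT signalling.

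The E-box that MYC and MAX bind best reads CACGTG and is its own reverse complement, so a search of 1 strand covers both. RefSeq promoter sequences (GRCh38.p14, 250 bases before to 50 bases after each start) were found for 30 of the 36 members. Of those 30, 15 held the motif. It was held by 8.78% of the 27305 genes of that promoter table and by 12.3% of the 11321 tested genes with a promoter in it. An E-box next to the start is the usual sign by which such genes are linked to MYC. The windows below are those in which the motif starts before the transcription start. They were not picked by nearness to it: WDR43 (from base 4) and GNL3 and FBL (from base 7) held the motif just after the start. The E-box is in capitals, and each window is 30 bases long, read 5′ to 3′ on the gene's strand.
DDX21 promoter (chr10:68956604-68956633, plus strand): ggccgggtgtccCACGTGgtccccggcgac
LYAR promoter (chr4:4290068-4290097, minus strand): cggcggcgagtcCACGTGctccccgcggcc
RRP9 promoter (chr3:51941892-51941921, minus strand): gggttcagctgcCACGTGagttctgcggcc
UTP20 promoter (chr12:101280083-101280112, plus strand): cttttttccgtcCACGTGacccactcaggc
ODC1 promoter (chr2:10448024-10448053, minus strand): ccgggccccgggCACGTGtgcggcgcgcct
The motif began 31 bases before the start in DDX21, 64 in LYAR, 5 in RRP9, 10 in UTP20 and 29 in ODC1. ODC1 held another copy just after its start. The other 10 members with the motif, among them GNL3, FBL, NOP14, BYSL and PNO1, held it after the start. These are matches of letters and not measured binding sites.

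The libraries held 19.5 to 41.9 counts in units of 1000000, the median library 29.2, and 17049 genes were tested. The 10 colorectal epithelial markers summed to between 10880 and 13930 CPM per library, and the fibroblast, leukocyte and endothelial marker sums lay between 1.09 and 4.35 CPM. Most of the epithelial sum came from KRT8 and KRT18, with medians of 6362 and 3818 CPM. CDX2, CDH17 and TFF3 were low, with medians of 3.95, 2.86 and 3.94 CPM. The other epithelial markers had medians from 156.9 (VIL1) to 503 CPM (EPCAM). The share of counts from the mitochondrial genome was 9.74% to 13.9% in libraries with an extract and 12.8% to 13.5% in vehicle libraries. The libraries fell into 2 parts along their numbering, set by the first principal component of expression, which held 11.6% of the variance. The later part had 29 libraries with a median total of 24.9 and the earlier part 31 with a median of 34.7. All libraries of Soyo-san, Okbyeongpung-san and Soshiho-tang were later ones, all of Menthae Herba, Saposhnikoviae Radix and the vehicle were earlier ones, and Saengmaek-san and Guibi-tang had both. The vehicle libraries carry a number series of their own and were placed in the earlier part by the first principal component alone. In the comparisons of Soyo-san and Okbyeongpung-san with vehicle, extract and library part therefore cannot be told apart except through a term estimated from Saengmaek-san and Guibi-tang, called the order term below. In bulk RNA, a change in the share of cells that express a gene and a change in the RNA per cell cannot be told apart.

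All 36 members were well expressed. Per kilobase of exon, NPM1 (nucleophosmin, a histone and ribosomal protein chaperone) had the highest level in vehicle cells with 374 ± 15.6 CPM per kb (SD, n = 3). NCL (nucleolin, which binds nascent ribosomal RNA) followed with 169 ± 7.99, ODC1 (ornithine decarboxylase, the first enzyme of polyamine synthesis) with 161 ± 2.33, and FBL (fibrillarin, the methyltransferase of the box C/D snoRNPs) with 140 ± 4.91 CPM per kb. NCL and ODC1 differed by less than their spread. MYC was the fifth with 103 ± 2.09 CPM per kb, and the RNA polymerase I subunit POLR1C came last with 5.73 ± 0.139 CPM per kb. The ratio of the highest to the lowest of the 60 libraries was 1.71 for LYAR, 1.68 for NCL and 1.36 for MYC. It was smallest for CAD, at 1.14. The range of every member over the libraries was thus narrow. NPM1 has many pseudogene copies and PPAN overlaps a readthrough transcript, so the division of their reads is uncertain.

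Against vehicle at the high dose, the ribosome biogenesis genes were called higher in 4 of the 6 extracts and lower in none. With Soyo-san 22 of the 36 members rose, against 8.03% of all genes tested that were called higher. With Okbyeongpung-san 11 members rose (4.36% of all genes), with Menthae Herba 6 (4.59%) and with Saengmaek-san 3 (2.39%). No member passed for Guibi-tang (1.28% of all genes) or Saposhnikoviae Radix (0.293%) in edgeR's quasi-likelihood test with Benjamini-Hochberg adjustment. Unless another fit is named, edgeR values here come from the fit of all groups together without the order term. At an unadjusted p under 0.05, 14 members passed for Guibi-tang and 4 for Saposhnikoviae Radix. The share of all genes at that p was not counted, here or in any comparison below. Such counts can therefore not be set against a background. DESeq2 called DKC1 and TSR1 higher for Guibi-tang and no member for Saposhnikoviae Radix. The median log2 change of the 36 members was 0.19 for Soyo-san, 0.14 for Okbyeongpung-san, 0.12 for Saengmaek-san, 0.11 for Guibi-tang, 0.10 for Menthae Herba and 0.03 for Saposhnikoviae Radix. The median over all genes tested lay between -0.0041 and 0.0088 in each. All 18 comparisons with vehicle use the same 3 vehicle libraries, so they are not independent of each other. The 10 colorectal epithelial markers also moved with some extracts: 1 rose and 4 fell with Menthae Herba, and 3 rose and 3 fell with Soyo-san, and their part in these results was not tested. With 1 library left out at a time, the count for Soyo-san was 9 without its first library and at least 15 otherwise, and 9 of the 22 calls were ended by no single library. The same held for 2 of the 11 calls of Okbyeongpung-san (BOP1 and NOLC1), 2 of the 6 of Menthae Herba (RRP9 and PNO1) and none of the 3 of Saengmaek-san. The count for Menthae Herba was 3 without its first or its second library. That for Okbyeongpung-san was 3 without its first library, 4 without its second or without the first or the third vehicle library, and 7 without the third of its own. That for Saengmaek-san was 0 without the first vehicle library and 1 without either of the other two or without the second or the third of its own. Guibi-tang had 2 calls without its second library.

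**Figure D1:**
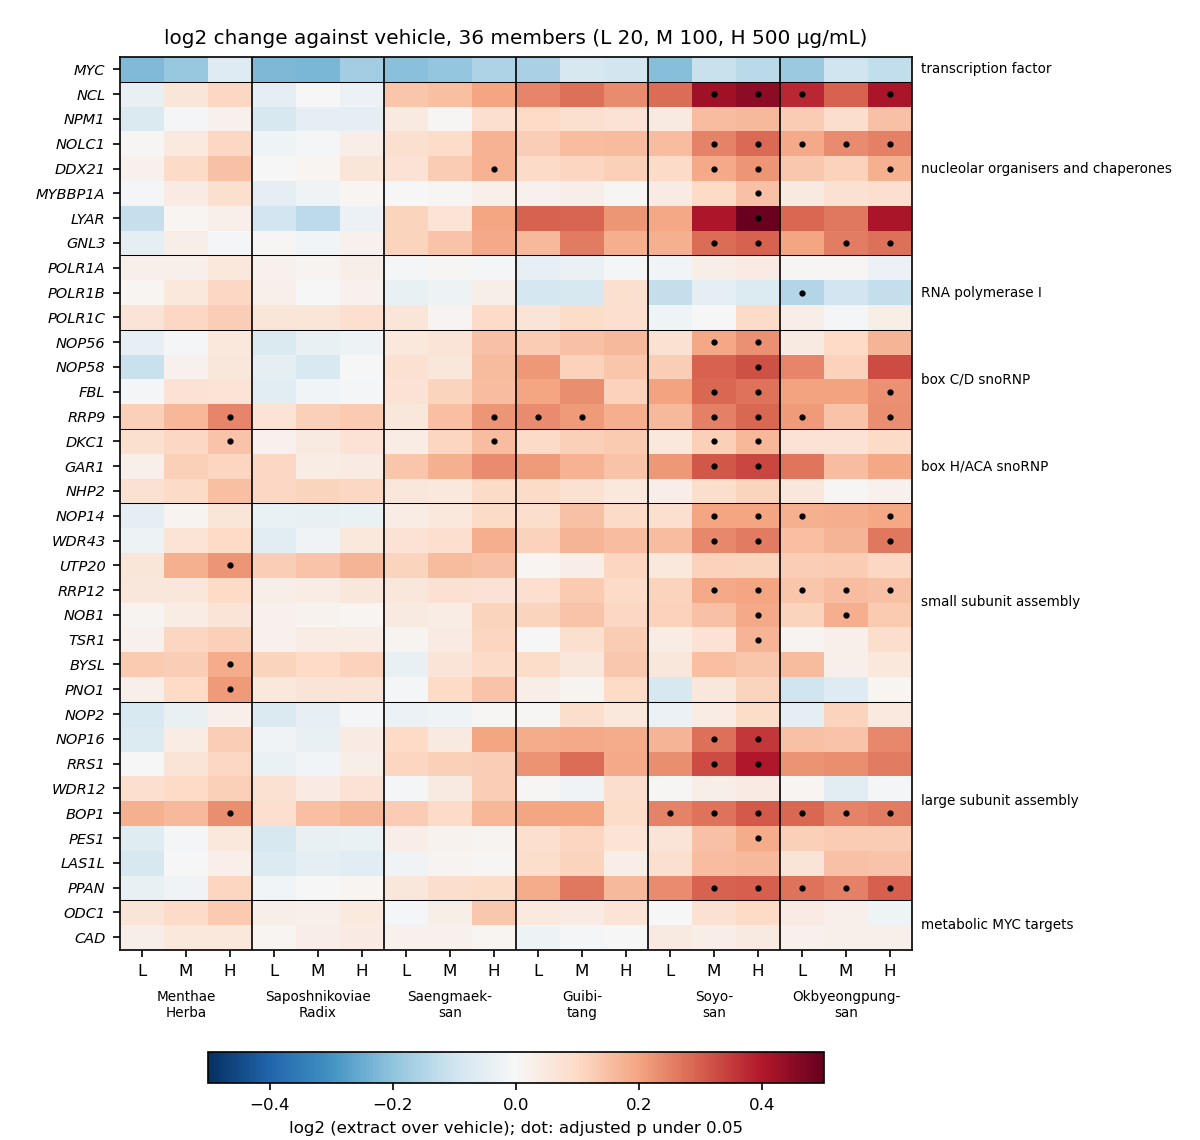
log2 change of each member against vehicle for 6 extracts at the low (L), medium (M) and high (H) dose, with members ordered by role and a dot where edgeR's adjusted p was under 0.05. Soyo-san has 22 dots at the high dose, Saposhnikoviae Radix has none at any dose, and the row of MYC is below 0 in all 18 columns.

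The levels of MYC itself lay below vehicle in most libraries. It had 299, 291 and 299 CPM in the high-dose libraries of Menthae Herba and 271, 277 and 277 CPM in those of Saposhnikoviae Radix, against 316, 311 and 303 CPM in vehicle libraries. High-dose Soyo-san libraries had 279, 301 and 267 CPM, and those of Okbyeongpung-san 275, 292 and 287 CPM. All 12 of these libraries were below the lowest vehicle library. Of all genes, 15.64% lay wholly below vehicle in this way with Menthae Herba, 12.15% with Saposhnikoviae Radix, 16.32% with Soyo-san and 13.81% with Okbyeongpung-san. Saengmaek-san had 265, 252 and 319 CPM at the high dose and Guibi-tang 279, 273 and 322 CPM. In both of these formulas the third library, which is a later one, exceeded the vehicle range. Of all 57 libraries with an extract, Soshiho-tang included, 52 were below the vehicle range, 3 within it and 2 above it. Among the earlier ones 28 of 28 were below. The vehicle libraries count as earlier by the first principal component alone, since they carry a number series of their own.

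Without a term for the library part, the test did not call this. The fitted change of MYC was negative in all 18 comparisons with vehicle, between -0.06 ± 0.07 (log2 ± SE) for Menthae Herba at the high dose and -0.23 ± 0.08 for Saposhnikoviae Radix at the medium dose. Adjusted p-values lay between 0.0957 and 0.687, and none of the 18 passed in DESeq2 either. With only the groups compared in the fit MYC passed, lower, in 8 of the 18, and likewise in 8 with no filter on low counts. With the order term in the fit, the standard error fell to between 0.05 and 0.06 and MYC passed the threshold, lower, in 17 of the 18 comparisons. The exception was Menthae Herba at the high dose (-0.06 ± 0.05, adjusted p 0.423). The 17 changes ran from -0.17 ± 0.05 for Guibi-tang at the high dose to -0.45 ± 0.06 for Soyo-san at the low dose. MYC was the one member called lower at the high dose with this term, for every extract but Menthae Herba, where no member was. The shares of all genes called lower in those fits were 5.2% for Menthae Herba, 0.528% for Saposhnikoviae Radix, 2.72% for Saengmaek-san, 1.5% for Guibi-tang, 3.24% for Soyo-san and 1.05% for Okbyeongpung-san. All 17 calls rest on the same 3 vehicle libraries: 11 were made without the first of them, 12 without the second and 16 without the third. The effect of an extract and of the vehicle's own number series cannot be told apart. Within each extract, the mean of MYC was higher at the high than at the low dose, by 0.05 to 0.16 on the log2 scale, and none of these 6 differences was called in the fit of all groups or with the order term. For Menthae Herba the difference was 0.15 or 0.16 in each of 4 fits, with an adjusted p of 0.38 in the fit of all groups, 0.0505 with the order term, 0.00643 with only the groups compared and 0.00291 with the earlier libraries alone.

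**Figure D2:**
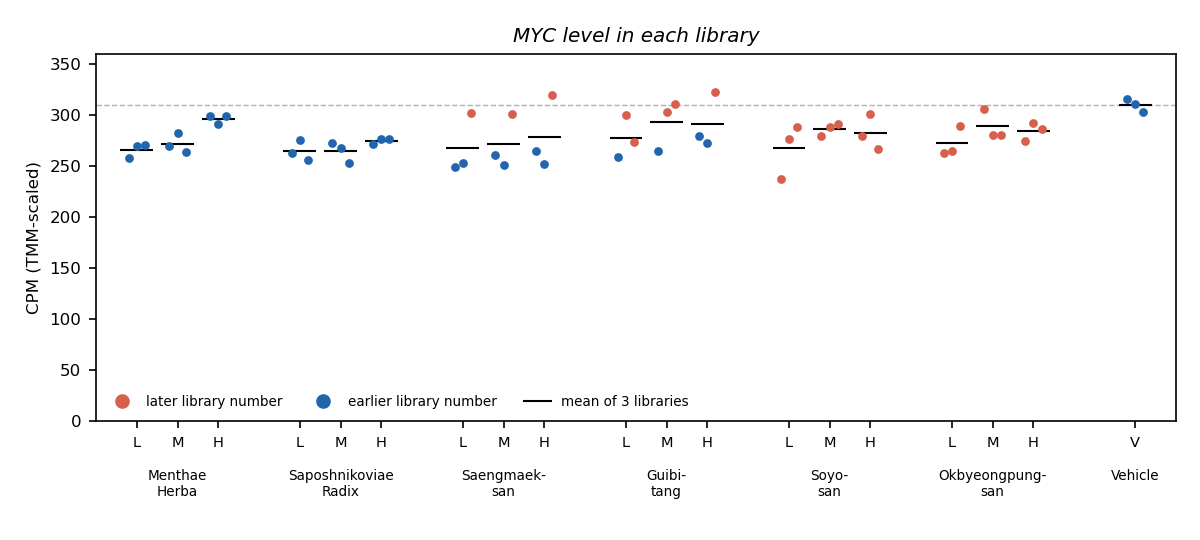
MYC level in CPM (TMM-scaled) in each library of 6 extracts at low (L), medium (M) and high (H) dose and of vehicle (V), with a black bar at each group's mean of 3 libraries and a dashed line at the vehicle mean. Later libraries are red and earlier ones blue, and every earlier library with an extract lies below the 3 vehicle libraries.

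In the fit of all groups without the order term, LYAR and NCL, of the nucleolar organisers and chaperones, had the largest changes with Soyo-san and with Okbyeongpung-san. With the term the change with Soyo-san was 0.01 ± 0.07 for LYAR, 0.10 ± 0.08 for NCL and 0.06 ± 0.06 for GNL3, and that of NCL with Okbyeongpung-san 0.06 ± 0.08, and BOP1 had the largest rise with both formulas (0.28 ± 0.07 and 0.24 ± 0.07). Without the term 6 of the 7 nucleolar organisers and chaperones rose with Soyo-san at the high dose (8.03% of all genes), with a median log2 change of 0.28. With Okbyeongpung-san 4 of 7 rose (4.36%), with a median of 0.25. NCL had 1661, 1616 and 1496 CPM in high-dose Soyo-san libraries, 1570, 1553 and 1530 CPM in high-dose Okbyeongpung-san libraries and 1105, 1202 and 1198 CPM in vehicle libraries. The 6 libraries with a formula were all above the 3 with vehicle. Of all genes, 19.02% lay wholly above vehicle with Soyo-san and 16.22% with Okbyeongpung-san. The log2 change was 0.45 ± 0.12 for Soyo-san (adjusted p 0.00779) and 0.41 ± 0.12 for Okbyeongpung-san (adjusted p 0.0246). LYAR, a nucleolar zinc finger protein of growing cells, had 71.8, 68.5 and 62.0 CPM with Soyo-san and 46.3, 52.0 and 45.3 CPM with vehicle (0.49 ± 0.14, adjusted p 0.0163). NOLC1, a chaperone that gathers snoRNPs, had 420, 416 and 367 CPM with Soyo-san and 335, 332 and 323 CPM with vehicle (0.28 ± 0.06, adjusted p 0.000567). Neither gene's groups overlapped. Leaving out any of 4 of the 6 libraries ended the call of LYAR, with adjusted p-values up to 0.0873, and none ended those of NCL and NOLC1 for Soyo-san. For Okbyeongpung-san 5 of 6 ended that of NCL (up to 0.12). DDX21, an RNA helicase of the nucleolus, rose with Soyo-san (0.22 ± 0.05), Okbyeongpung-san (0.18 ± 0.05) and Saengmaek-san (0.17 ± 0.05, adjusted p 0.0452). GNL3 (nucleostemin) rose with Soyo-san (0.30 ± 0.08) and Okbyeongpung-san (0.28 ± 0.08). With Menthae Herba none of the 7 passed, and LYAR had 48.3, 46.2 and 51.9 CPM, within the vehicle range.

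The 3 subunits of RNA polymerase I were rarely called. None of POLR1A, POLR1B and POLR1C was called at the high dose of any extract in the fit of all groups, with 3 of the 18 tests at an unadjusted p under 0.05. With the earlier libraries alone POLR1C passed for Menthae Herba (0.12, adjusted p 0.0471 in edgeR). DESeq2 called POLR1B lower for Okbyeongpung-san (-0.13, adjusted p 0.0403). The median of the 3 was 0.04 for Soyo-san and -0.03 for Okbyeongpung-san. POLR1B, the second largest subunit, was the one member called lower in the fit of all groups without the order term (MYC was also called lower with only the groups compared and with no filter on low counts): it had a mean of 63.9 ± 1.08 CPM at the low dose of Okbyeongpung-san and 70.8 ± 1.41 CPM with vehicle (-0.15 ± 0.04, adjusted p 0.0272), where 4.05% of all genes were called lower. Leaving out any of 5 of the 6 libraries ended this call, with adjusted p-values up to 0.0933.

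Among the snoRNP proteins, RRP9 was called at the high dose of 4 extracts, more than any other member in the fit of all groups. In the fit with the order term it was called in 3, as were DKC1, UTP20 and BOP1, and for Okbyeongpung-san its change was then 0.14 ± 0.06 (adjusted p 0.267). It belongs to the U3 particle that guides the first cuts of the precursor. It had 46.8, 47.6 and 47.5 CPM with Menthae Herba, 46.6, 43.0 and 50.6 CPM with Saengmaek-san and 52.6, 47.9 and 45.4 CPM with Soyo-san. It had 45.2, 48.3 and 47.4 CPM with Okbyeongpung-san and 39.3, 41.3 and 39.1 CPM with vehicle. All 12 of these extract libraries exceeded the 3 vehicle libraries. Extract by extract, this held for 16.63% of all genes with Menthae Herba, 10.46% with Saengmaek-san, 19.02% with Soyo-san and 16.22% with Okbyeongpung-san. The log2 changes were 0.24 ± 0.06 for Menthae Herba (adjusted p 0.0031), 0.22 ± 0.06 for Saengmaek-san (0.0175), 0.29 ± 0.06 for Soyo-san (0.000513) and 0.23 ± 0.06 for Okbyeongpung-san (0.00887). No single library ended the call for Menthae Herba or Soyo-san, any of 3 of 6 ended that for Saengmaek-san (adjusted p up to 0.129), and the second Okbyeongpung-san library that for its own formula (0.058). Of all 57 libraries with an extract, 53 were above the vehicle range for RRP9.

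Against 8.03% of all genes, all 4 box C/D proteins were called higher with Soyo-san. Besides RRP9 these were NOP56 (0.23 ± 0.06), NOP58 (0.32 ± 0.11) and FBL (0.27 ± 0.07), and FBL rose also with Okbyeongpung-san by 0.23 ± 0.07. Of the box H/ACA proteins, DKC1 (dyskerin, the pseudouridine synthase) rose in 3 extracts. DKC1 had 309, 311 and 299 CPM with Menthae Herba, 306, 301 and 318 CPM with Saengmaek-san, 326, 303 and 303 CPM with Soyo-san and 276, 274 and 282 CPM with vehicle. No extract library of these 9 fell into the vehicle range. Wholly above that range were 16.63% of all genes with Menthae Herba, 10.46% with Saengmaek-san and 19.02% with Soyo-san. The changes were small and close to each other, at 0.14 ± 0.04 for Menthae Herba (adjusted p 0.0147), 0.15 ± 0.04 for Saengmaek-san (0.0182) and 0.16 ± 0.04 for Soyo-san (0.00326). Leaving out any of 4 of 6 libraries ended the call for Menthae Herba and for Saengmaek-san, with adjusted p-values up to 0.0768 and 0.104. GAR1, its partner, rose with Soyo-san by 0.33 ± 0.10, and NHP2, another core protein of the particle, was not called at any dose in the fit of all groups, but passed for Menthae Herba at the high dose (0.15) in edgeR with the order term (adjusted p 0.0469) and with only the groups compared (0.00776).

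At the high dose, 5 of the 8 small-subunit factors were called higher with Soyo-san (8.03% of all genes). With Okbyeongpung-san 3 of 8 were (4.36%), and with Menthae Herba 3 of 8 (4.59%). The medians were 0.18, 0.12 and 0.11, in that order. With Menthae Herba UTP20, BYSL and PNO1 rose. UTP20 acts in early processing, and BYSL and PNO1 in maturation of the small subunit. With Soyo-san NOP14, WDR43, RRP12, NOB1 and TSR1 rose, and with Okbyeongpung-san NOP14, WDR43 and RRP12. Whether these sets differ was not tested, and with the order term they overlapped: UTP20, TSR1 and BYSL were then called with both Soyo-san and Menthae Herba, PNO1 with Menthae Herba, and none of the 8 with Okbyeongpung-san. No member passed in the tests between extracts given below, which set Menthae Herba beside Saposhnikoviae Radix and Soyo-san beside Okbyeongpung-san. PNO1 had 46.0, 44.0 and 45.0 CPM with Menthae Herba and 38.6, 40.0 and 37.9 CPM with vehicle, without overlap (0.21 ± 0.05, adjusted p 0.0036). Among all genes, 16.63% lay wholly above vehicle with Menthae Herba. UTP20 had 103, 106 and 100 CPM with Menthae Herba and 78.0, 93.4 and 93.5 CPM with vehicle (0.22 ± 0.06, adjusted p 0.00755). The first vehicle library of UTP20 lay far below the other two, and without it the change was 0.14 (adjusted p 0.154).

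Of the large-subunit factors, 5 of 8 rose with Soyo-san (8.03% of all genes), 2 with Okbyeongpung-san (4.36%) and 1 with Menthae Herba (4.59%). BOP1, a scaffold of the complex it forms with PES1 and WDR12, was that 1 gene and rose in all 3. It had 102, 95.9 and 98.2 CPM with Menthae Herba, 106, 105 and 101 CPM with Soyo-san, 99.9, 97.5 and 105 CPM with Okbyeongpung-san and 89.1, 82.4 and 80.7 CPM with vehicle. Every one of these 9 extract libraries was above the highest vehicle library. Extract by extract, this held for 16.63% of all genes with Menthae Herba, 19.02% with Soyo-san and 16.22% with Okbyeongpung-san. The log2 changes were 0.23 ± 0.06 for Menthae Herba (adjusted p 0.00603), 0.31 ± 0.06 for Soyo-san (adjusted p 0.000247) and 0.26 ± 0.06 for Okbyeongpung-san (adjusted p 0.0038). The call for Menthae Herba was at an adjusted p of 0.0502 without the third vehicle library and 0.0508 without its own first. RRS1, which brings the 5S particle to the large subunit, had 75.6, 68.3 and 67.9 CPM with Soyo-san and 52.6, 53.4 and 54.6 CPM with vehicle (0.40 ± 0.09, adjusted p 0.00195). NOP16 (0.35 ± 0.08), PPAN (0.30 ± 0.08) and PES1 (0.18 ± 0.06) also rose with Soyo-san, and PPAN with Okbyeongpung-san (0.30 ± 0.08). WDR12, LAS1L and NOP2 were not called at any dose in the fit of all groups without the order term. Other tests called 2 of them at the high dose: DESeq2, the order term and the groups compared alone each called WDR12 for Menthae Herba (0.12), the order term also for Saengmaek-san (0.14), and DESeq2, the replicate block and the groups compared alone called LAS1L for Soyo-san (0.16). Neither of the metabolic MYC targets passed at any dose in the fit of all groups without the order term. At the high dose of Soyo-san the log2 change was 0.10 for ODC1 and 0.05 for CAD, the enzyme that starts pyrimidine synthesis. ODC1 was called for Menthae Herba (0.13) by DESeq2 (adjusted p 0.0413), and in edgeR with the order term (0.0452) and with only the groups compared (0.00676).

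**Figure D3:**
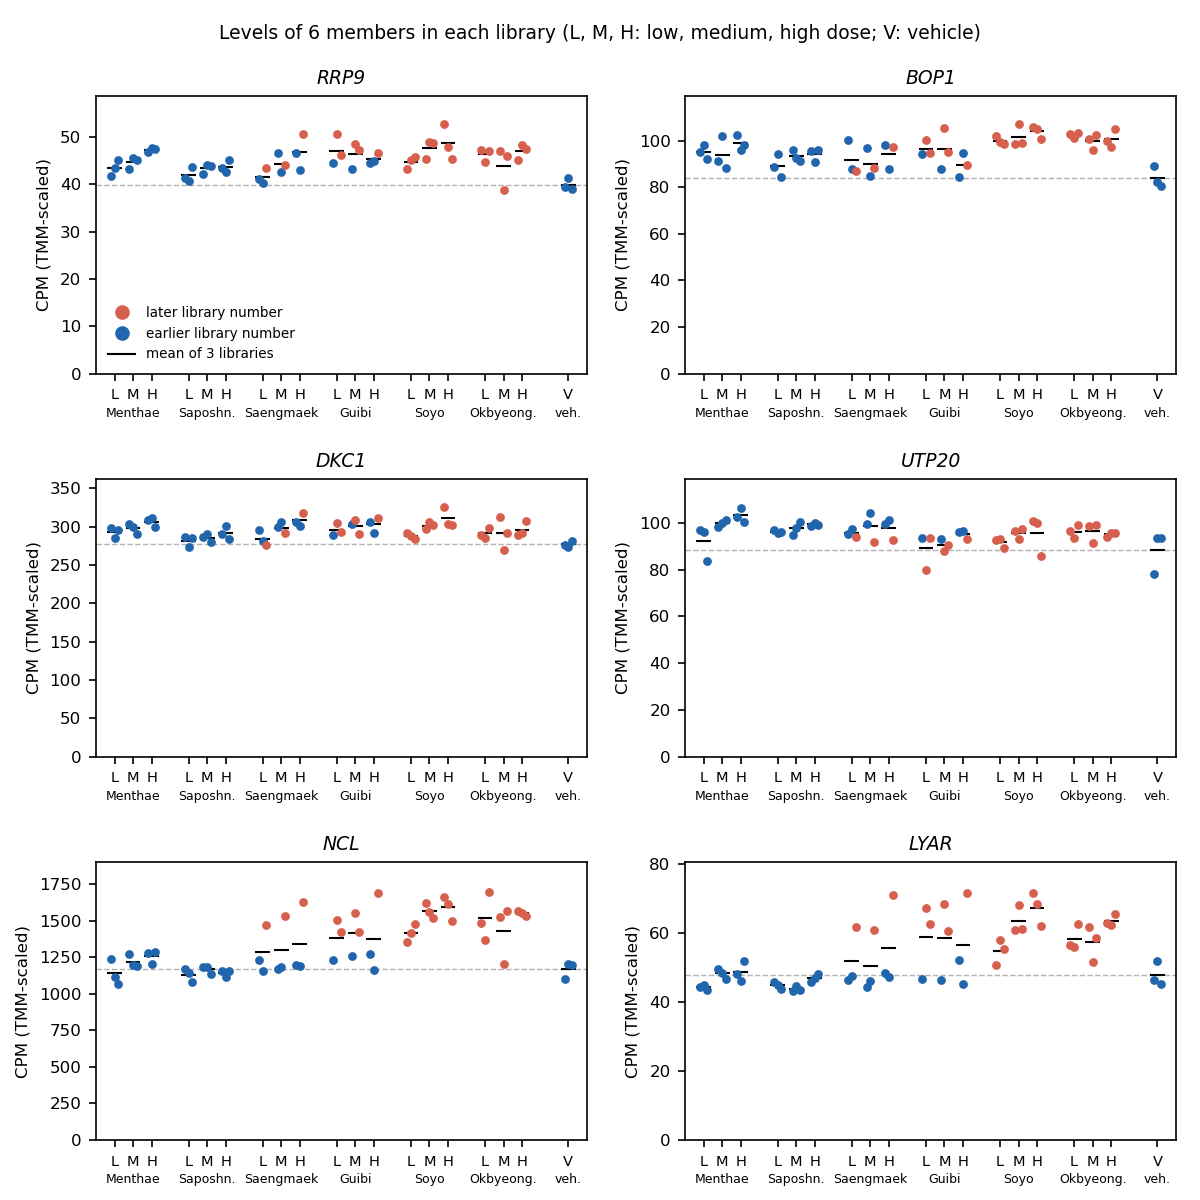
Levels in CPM (TMM-scaled) of RRP9, BOP1, DKC1, UTP20, NCL and LYAR in each library, by extract and dose (L low, M medium, H high) with vehicle (V) at the right, a black bar at each group's mean and a dashed line at the vehicle mean. NCL and LYAR part by the library numbering inside Saengmaek-san and Guibi-tang, with the later libraries (red) above the earlier ones (blue). BOP1 and DKC1 differ less. BOP1 averaged 97.1 ± 6.03 CPM in later and 90.3 ± 5.02 CPM in earlier libraries of Guibi-tang. In Saengmaek-san it averaged 90.8 ± 5.58 CPM in later and 92.6 ± 6.57 CPM in earlier libraries.

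Many members also differed between later and earlier libraries. With groups held in the fit, 20 members were higher and 4 lower in later than in earlier libraries, against 15.9% and 13.7% of all genes, and the median of the 36 was 0.10. This contrast draws on Saengmaek-san and Guibi-tang alone. The cut between the parts came from the expression values of these same libraries, so the contrast is a description and no independent test. The order term rests on the same cut. LYAR differed most, by 0.48 ± 0.04, followed by NCL (0.35 ± 0.04), NOP58 (0.30 ± 0.05) and RRS1 (0.28 ± 0.03). LYAR averaged 64.6 ± 5.55 CPM in the 3 later and 46.7 ± 1.44 CPM in the 6 earlier libraries of Saengmaek-san, and 66.2 ± 4.53 CPM in the 5 later and 47.7 ± 3.11 CPM in the 4 earlier libraries of Guibi-tang. MYC was higher in the later libraries too, by 0.23 ± 0.03: it averaged 308 ± 10.2 CPM in later and 255 ± 6.30 CPM in earlier libraries of Saengmaek-san, and 302 ± 18.2 CPM in later and 269 ± 8.96 CPM in earlier libraries of Guibi-tang. CAD (-0.08), UTP20 (-0.09), WDR12 (-0.07) and POLR1B (-0.06) were lower. BOP1 (0.02 ± 0.04) and DKC1 (0.01 ± 0.02) were not called, and RRP9 was higher by 0.10 ± 0.03. The calls of POLR1B and WDR12 were ended by leaving out any of 16 and 14 of the 18 libraries of these formulas, with adjusted p-values up to 0.17 and 0.197, and that of UTP20 by any of 3 (up to 0.0775).

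**Figure D4:**
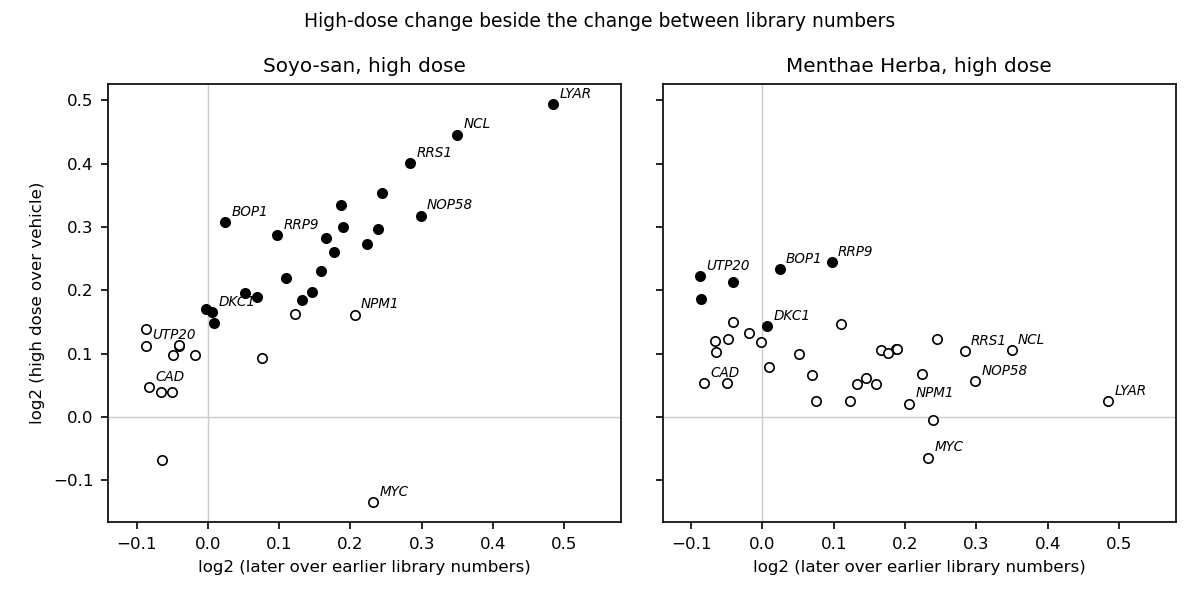
log2 change at the high dose over vehicle (vertical axis) beside the log2 difference of later over earlier libraries (horizontal axis) for each member, for Soyo-san (left, all libraries later) and Menthae Herba (right, all libraries earlier); filled points passed the test of the high dose. For Soyo-san the members with the largest changes without the order term, LYAR and NCL, also have the largest library difference, with BOP1 and RRP9 high at small library differences and MYC low at 0.23.

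With the order term, the high-dose counts became 11 members higher for Menthae Herba (6.39% of all genes), 5 for Saengmaek-san (3.67%), 6 for Soyo-san (3.92%), 1 for Okbyeongpung-san (1.3%) and none for Guibi-tang (2.12%) or Saposhnikoviae Radix (0.645%), where 11 and 5 members had an unadjusted p under 0.05. DESeq2 was not run with this term. With the earlier libraries alone in the fit, 13 members rose with Menthae Herba (7.49% of all genes), 7 with Saengmaek-san (4.48%) and 1 with Guibi-tang (2.14%). None rose with Saposhnikoviae Radix (1.37%). In that fit MYC fell in 9 of the 10 comparisons with vehicle that such libraries allow, where 0.229% to 6.54% of all genes fell. Soyo-san and Okbyeongpung-san have no earlier library, so no such value exists for them. For Soyo-san the 6 were RRP9 (0.19 ± 0.06), DKC1 (0.16 ± 0.04), UTP20 (0.20 ± 0.06), TSR1 (0.17 ± 0.05), BYSL (0.23 ± 0.07) and BOP1 (0.28 ± 0.07). NCL, LYAR, NOLC1 and RRS1 were not among them. For Okbyeongpung-san the 1 gene was BOP1 (0.24 ± 0.07, adjusted p 0.0411). With this term the median of the members was 0.11 for Soyo-san, 0.05 for Okbyeongpung-san and 0.10 for Menthae Herba. For Menthae Herba, whose libraries share the earlier part with the vehicle, DDX21, NHP2, TSR1, WDR12 and ODC1 were added to the 6 without the term.

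**Figure D5:**
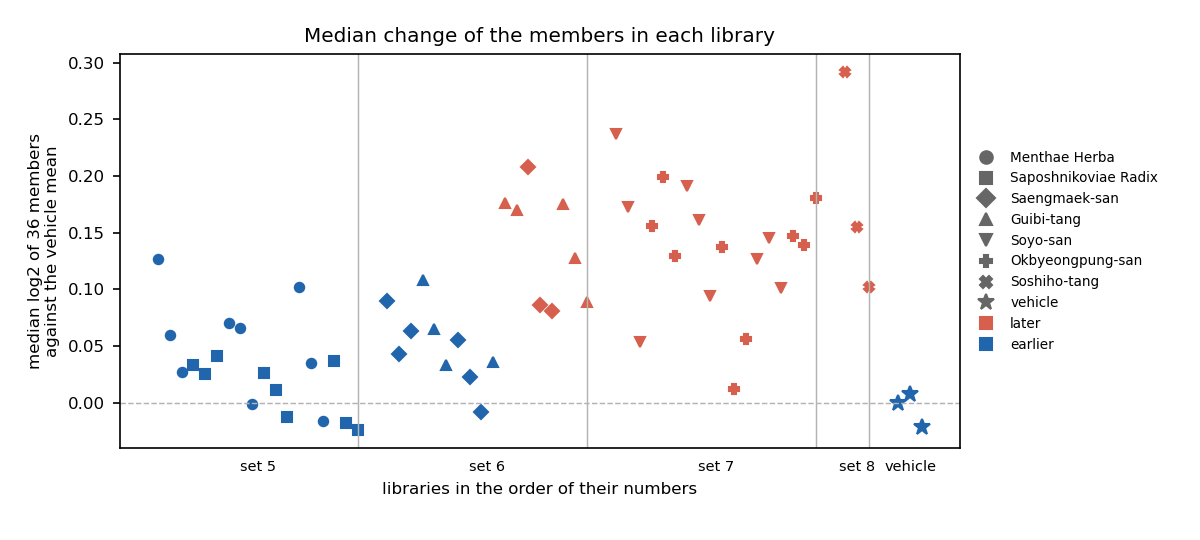
Median over the 36 members of the log2 difference from the vehicle mean in each library, in the order of the library numbers, with the vehicle libraries at the right; symbols give the extract, red later and blue earlier libraries. The later libraries lie higher than most of the earlier ones, also within the middle set, which holds only Saengmaek-san and Guibi-tang.

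At the medium dose 16 members rose with Soyo-san (5.57% of all genes), 6 with Okbyeongpung-san (2.17%) and 1, RRP9, with Guibi-tang (0.575%). None passed for Menthae Herba (0.334%), Saposhnikoviae Radix (0.0117%) or Saengmaek-san (0.164%), with 10, 5 and 5 members at an unadjusted p under 0.05. At the low dose 7 members rose with Okbyeongpung-san (4.74%), 1 with Soyo-san (BOP1, 2.04%) and 1 with Guibi-tang (RRP9, 0.504%). None passed for Menthae Herba (0.0117%), Saposhnikoviae Radix (0.0645%) or Saengmaek-san (0.0352%), with 5, 2 and 2 members at an unadjusted p under 0.05. BOP1 was called at all 3 doses of Soyo-san (0.25 ± 0.06, 0.27 ± 0.06 and 0.31 ± 0.06, low to high) and at all 3 of Okbyeongpung-san (0.29 ± 0.06, 0.25 ± 0.06 and 0.26 ± 0.06). RRP12, a factor in the export of pre-ribosomes, and PPAN and NOLC1 were also called at all 3 doses of Okbyeongpung-san. DESeq2 called no member in the 6 comparisons without a call. Leaving out 1 library ended at least once every call of these doses but 6 with Soyo-san at the medium dose and 1, BOP1, with Okbyeongpung-san at the low dose. Summed over the 12 comparisons the 33 calls became 13, 18 and 12 without the first, the second and the third vehicle library. With the order term the 12 medium- and low-dose comparisons gave 8 calls of higher members (0.903% of all gene tests) and 13 of lower ones (0.863%), of which 12 were MYC and the other was LYAR with Soyo-san at the low dose (-0.29 ± 0.07).

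The doses of an extract can be compared without the vehicle. High against low dose of Menthae Herba called PNO1 alone among the members (1.13% of all genes). It had 46.0, 44.0 and 45.0 CPM at the high dose and 40.1, 39.8 and 38.8 CPM at the low dose, without overlap (0.19 ± 0.05, adjusted p 0.0247). Among all genes, 11.38% lay wholly higher at the high dose in this comparison. All 36 members had a positive difference in Menthae Herba (51.25% of all genes), with a median of 0.09, and all 36 in Soyo-san (50.71%), with a median of 0.11. In Soyo-san none passed (0.088% of all genes called higher) and 14 had an unadjusted p under 0.05. The members vary together between libraries (median pairwise r 0.32), so their signs are not independent. None passed for Saposhnikoviae Radix (0.0293% of all genes, median 0.03), Saengmaek-san (0.0117%, median 0.06), Guibi-tang (0.211%, median 0.01) or Okbyeongpung-san (0.00587%, median 0.03), with 0, 7, 2 and 2 members at an unadjusted p under 0.05. DESeq2 called POLR1B for Guibi-tang (0.17) and no member for the other 4. Without the third high-dose library, 1 member passed for Soyo-san. The call of PNO1 was ended by any of 5 of its 6 libraries, with adjusted p-values up to 0.149. With the order term NOP16 was added for Menthae Herba (0.19 ± 0.05, adjusted p 0.029) and LYAR called for Soyo-san (0.30 ± 0.06, adjusted p 0.00819). The group means of 30 of 36 members rose in step from low over medium to high dose in Menthae Herba, where 23.1% of all genes did, and those of 29 in Soyo-san, where 20.5% did. This order was seen for 22 members in Saengmaek-san (21.8% of all genes), 17 in Saposhnikoviae Radix (18.7%), 11 in Okbyeongpung-san (14.6%) and 9 in Guibi-tang (18.3%). These counts of ordered means are descriptions without a test.

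Between extracts at the high dose no member passed in any of the 3 tests. Menthae Herba was set against Saposhnikoviae Radix, both with earlier libraries only (0.493% of all genes were called higher). The members' median difference was 0.07, with 35 of 36 positive (50.35% of all genes) and 3 at an unadjusted p under 0.05. Guibi-tang against Saengmaek-san (0.328%) gave a median of -0.01 and no member at that p. Soyo-san against Okbyeongpung-san (0%) gave a median of 0.05, with 33 of 36 positive (50.39% of all genes) and 2 at that p. DESeq2 called none in any of the 3 either. With only the groups compared in the fit, MYC (0.11), NCL (0.13) and PNO1 (0.15) were higher with Menthae Herba than with Saposhnikoviae Radix. There 2.16% of all genes were called higher.

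Other genes of the pathway were counted in lists written for the purpose. At the high dose, the shares of all genes called higher were 8.03% with Soyo-san, 4.36% with Okbyeongpung-san and 4.59% with Menthae Herba. They were 2.39% with Saengmaek-san and 1.28% with Guibi-tang. Of 43 further large-subunit factors, 25 rose with Soyo-san at the high dose and none fell, among them WDR18 (0.34) and GTPBP4 (0.22). With Okbyeongpung-san 12 of the 43 rose, with Menthae Herba 5, with Saengmaek-san 3 and with Guibi-tang 2. Of 48 further small-subunit factors, 13 rose with Soyo-san (for example DDX49, by 0.32), 6 with Menthae Herba (WDR36, by 0.23), 3 with Saengmaek-san and 1 with Okbyeongpung-san (KRR1, by 0.25). Of 18 genes of the RNA polymerase I apparatus, 3 rose with Soyo-san, among them TAF1D and TCOF1. Of 18 genes of snoRNP assembly and RNase MRP 4 rose with Soyo-san, among them RUVBL2, an ATPase that helps snoRNPs to form. Genes of these lists also rose at the high dose with other extracts. Among them were POLR1E, RRN3, RPP40 and RPP14 with Menthae Herba, TAF1D and RPP40 with Saengmaek-san, and TAF1D, TCOF1 and RUVBL2 with Okbyeongpung-san. With the order term the Soyo-san counts were 9 of 43, 7 of 48, 1 of 18 and 2 of 18 (3.92% of all genes). With Saposhnikoviae Radix none of these genes passed without that term.

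The list of 40 further MYC targets outside ribosome assembly had 39 tested genes. At the high dose it was called most often with Menthae Herba, where 12 rose (4.59% of all genes) and none fell. MTHFD2, a mitochondrial folate enzyme, averaged 147 CPM with Menthae Herba and 119 CPM with vehicle (0.31, adjusted p 1.12e-05). TFRC, the transferrin receptor, averaged 756 CPM with Menthae Herba and 607 CPM with vehicle (0.32, adjusted p 0.000158). With Soyo-san 9 of the 39 rose (8.03% of all genes), with Saengmaek-san 5 (2.39%), and with Guibi-tang (1.28%) and Okbyeongpung-san (4.36%) 2 each. Of 17 tested partners and antagonists of MYC, MXD4, a repressor that competes for MAX, fell with Menthae Herba (35.8 CPM against 44.2 CPM with vehicle, -0.30, adjusted p 0.000144). At the low dose MXD4 rose with Soyo-san (0.21, adjusted p 0.0238) and with Okbyeongpung-san (0.27, adjusted p 0.00125). MXI1, of the same list, rose with Soyo-san at the high dose (0.18, adjusted p 0.0234). MYCL, a weakly expressed relative of MYC, fell at the high dose with Menthae Herba (5.78 CPM against 7.64 CPM with vehicle, -0.40, adjusted p 0.000946), Saengmaek-san (-0.31) and Guibi-tang (-0.29). ZBTB17, a zinc finger partner of MYC, rose at the high dose with Soyo-san (14.6 CPM against 11.0 CPM with vehicle, 0.42) and Okbyeongpung-san (0.45). With the order term no gene of this list passed for either formula at the high dose.

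Over the 57 libraries, deviations from the group means showed which members varied with MYC inside groups. The other 35 members had a median Pearson r of 0.49 with MYC, and 0.28 once the library part was also removed, where the median of all genes tested was 0.00. After that removal the closest members were LAS1L (0.61), NOP14 (0.55), NOP56 (0.55) and LYAR (0.49), and UTP20 (-0.09) and POLR1B (-0.04) lay at the other end. The members' own pairwise r had a median of 0.32, and 86.8% of pairs were above 0. The points are libraries that share their part of the numbering and depth, and these values are descriptions. Members with and without the E-box were also set side by side. At the high dose without the order term, the 15 with it had a median change of 0.20 with Soyo-san (10 called), 0.18 with Okbyeongpung-san (6 called) and 0.10 with Menthae Herba (4 called). The 15 without it had 0.16 (7 called), 0.09 (2 called) and 0.10 (1 called). Of all genes 8.03%, 4.36% and 4.59% were called higher there. With Saengmaek-san (2.39% of all genes) the medians were 0.15 with it (2 called) and 0.10 without (1 called). They were 0.12 and 0.09 with Guibi-tang, and 0.04 and 0.03 with Saposhnikoviae Radix, with 0 called. The differences were not tested. Between later and earlier libraries the medians were 0.11 with and 0.01 without the motif.

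Soshiho-tang had 1 library per dose, so its values have no replicate check. The median ratio of the 36 members to the vehicle mean was 1.07 at the low, 1.11 at the medium and 1.22 at the high dose, with a median over all genes of 1.00, 1.00 and 0.995. At the high dose 34 members were above the range of the 3 vehicle libraries, where 38% of all genes were. At the low and medium dose 24 and 31 members were above it (33.7% and 34% of all genes). MYC was below that range at each dose, with 0.792, 0.823 and 0.958 times the vehicle mean. All 3 libraries are later ones, and the part of the library number in these ratios was not tested.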

How the data were processed

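RNA of HT29 cells was sequenced as 60 libraries. The authors deposited 1 table of expected counts per gene, made with RSEM 1.3.3 on the hg38 genome, per the submitters' processing notes, which also name STAR 2.7.3a, Trim Galore 0.6.5 and FastQC 0.11.9. The annotation release and the strand setting were not given in the sources used here. Expected counts need not be whole, so they were rounded. Exon lengths came from GENCODE 29, symbols from a table of gene names (56558 of 60675 identifiers), and E-box motifs from RefSeq promoters (GRCh38.p14).

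Genes with low counts were removed by edgeR's filterByExpr, which left 17049, and libraries were scaled by TMM. All 57 libraries of the 19 groups of 3 were fitted together with edgeR 4.0.16 (quasi-likelihood, robust) in R 4.3.3, leaving 38 residual degrees of freedom. P-values were adjusted by Benjamini-Hochberg over all genes tested, with a threshold of 0.05. CPM values are TMM-scaled, a ± after a log2 change is its standard error and a ± after a mean is the SD over libraries. The library part was set from the first principal component of log2 CPM. DESeq2 1.42.0, its size factors, no filter, only the groups compared, a replicate block, an order term, either library part alone and leaving out each library were the alternatives. The code was tested on simulated data. The chi-square of 2 libraries of a group was at least 1.89 times its degrees of freedom, so no pair agreed within sampling noise.

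The members and lists were chosen with earlier results of these data known. By rule, MYC and up to 6 called members of smallest p in each direction, and 2 genes of each other list, were named per comparison. Members named beyond these were chosen after their values were seen.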

Additional observations from a re-analysis of the deposited data

How the results depend on the processing

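Counts of members called are given here, higher and lower together. Paired percentages are the shares of all genes in the same fit called higher and called lower. No such share was counted with 1 library left out. For Menthae Herba against vehicle at the high dose the count of 6 became 10 with DESeq2 (2.87% and 2.43%) and 11 with the library order term (6.39% and 5.2%). It became 12 with only the groups compared in the fit (8.16% and 7.17%) and 13 in earlier libraries alone (7.49% and 6.54%). With 1 library left out at a time it was 3 to 6. For Saengmaek-san the 3 became 6 with the order term (3.67% and 2.72%) and 0 with only the groups compared (0.0572% and 0.267%). It became 8 in the earlier libraries (4.48% and 4.02%) and 0 to 4 with 1 library left out. For Guibi-tang the count of 0 became 2 with no filter on low counts (0.671% and 0.794%) and 2 with DESeq2 (0.952% and 0.8%). It became 1 with the order term (2.12% and 1.5%), 2 in earlier libraries (2.14% and 1.82%) and 0 to 2 with 1 library left out. Saposhnikoviae Radix had 1 with the order term (0.645% and 0.528%), 2 with only the groups compared (2.04% and 2.61%) and 1 in earlier libraries (1.37% and 1.47%). The 22 of Soyo-san became 7 with the order term (3.92% and 3.24%) and 9 to 23 with 1 library left out. The 11 of Okbyeongpung-san became 17 with DESeq2 (2.75% and 2.27%), 2 with the order term (1.3% and 1.05%) and 3 to 8 with 1 library left out. Between high and low dose, Menthae Herba (1) had 0 with no filter (0.687% and 0.586%) and 2 with the order term (1.67% and 1.69%). It had 3 with the groups compared (2.16% and 2.11%), 5 in earlier libraries (2.38% and 2.16%) and 0 to 1 with 1 library left out. Guibi-tang had 1 with DESeq2 (0.2% and 0.126%). Soyo-san had 1 with no filter (0.235% and 0.203%), 1 with the order term (0.129% and 0.0821%) and 0 to 1 with 1 library left out. Menthae Herba against Saposhnikoviae Radix had 3 with only the groups compared (2.16% and 1.89%). The 33 calls summed over the 12 medium- and low-dose comparisons became 63 with no filter and 21 with the order term (0.903% and 0.863% of all gene tests). They became 60 with only the groups compared and 12 to 42 with 1 library left out. Shares of all genes over the 12 together were not counted with no filter or with only the groups compared. The causes of these shifts were not tested, and some of these fits also hold fewer libraries.

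DESeq2's size factors in place of TMM left each of the counts above within 1.5 times its value. They ended 4 single calls: DDX21 with Saengmaek-san at the high dose (adjusted p 0.0538) and, at the medium dose, RRP9 with Guibi-tang (0.0536), its only call, DKC1 with Soyo-san (0.0574) and PPAN with Okbyeongpung-san (0.0534). No change of a named member that passed with either scaling turned its sign. With the replicate number as a block, the high-dose counts against vehicle were 7 for Menthae Herba (4.98% of all genes called higher) and 0 for Saposhnikoviae Radix (0.364%). They were 3 for Saengmaek-san (2.92%), 0 for Guibi-tang (1.48%), 23 for Soyo-san (8.86%) and 16 for Okbyeongpung-san (5.27%). None of the other counts moved by over 1.5 times. Same-numbered libraries deviated together, by a correlation over 0.1 in all 3 pairs, in 1 of the 27 comparisons, Guibi-tang against Saengmaek-san at the high dose (0.144, 0.129 and 0.286), where the libraries of both formulas also share their order. There the block called 0 members, as did the fit without it. With the order term, leaving out a vehicle library was tried after seeing the data. With 3 libraries a group, the smallest log2 change of a member called against vehicle at the high dose was 0.14 for DKC1 with Menthae Herba in the fit of all groups without the order term, and 0.12 for TSR1 with Menthae Herba with that term.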
